A study of Mus musculus with 6 samples.

Results

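Circular RNAs (circRNAs) of 72 mouse genes named as histone modifiers or chromatin remodellers were examined in the hippocampus, 249 of the 10652 circRNAs in the deposited table. A circRNA is a transcript closed into a ring by back-splicing, in which a downstream splice donor joins an upstream acceptor, and the gene it comes from is called its host. Members were the circRNAs with a single host identifier whose GENCODE symbol begins with Kdm, Kmt, Setd, Hdac, Chd, Smarc, Arid, Brd, Brwd, Ezh, Phf, Nsd, Kat or Ubn (with a following digit except for Smarc), or is Ash1l. The choice used symbols only, so a few members lie outside chromatin by function, such as Phf24, whose product is known as a partner of inhibitory G proteins. A further 15 circRNAs listed a matching gene together with other identifiers and were kept out of the members.

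Chromatin proteins of this kind act as writers, which add methyl or acetyl groups to histones, erasers, which remove them, readers, which bind the marked tails, remodellers, which move nucleosomes with ATP, and chaperones, which deposit histones. Several of them are needed for memory formation and for the response of neurons to activity. Their genes tend to be long with many exons, a setting in which back-splicing is common, and a circRNA level need not follow the level of the protein-coding transcript.

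Adult male C57BL/6J mice (strain label C57BL/6), bought at 8 to 10 weeks old, made up 2 groups with 3 libraries each. The chronic unpredictable stress (CUS) mice met randomly ordered mild stressors for 4 weeks, among them food or water deprivation, overnight light, wet or missing bedding, cold swimming, tail nipping, restraint and cage tilt. Control mice are labelled as unstressed, and no other treatment or allele separates the groups. The labels do not say whether a library came from 1 mouse, and p-values cover only the spread between these libraries, which may be technical. RNA was selected for poly(A) before library preparation, per the labels' protocols, while a closed ring carries no poly(A) tail, so recovery of circRNAs can be low and uneven.

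Levels are 10 to the deposited value, a scale without a stated unit, and a circRNA without a value is listed at 0. Control replicates 1 to 3 held 4606, 4526 and 4329 circRNAs above 0 of any host, against 3991, 4238 and 4273 in the CUS replicates. Every CUS library thus held fewer than any Control library, and the part of this in the differences below was not tested. Summed levels ran from 1990255 to 2050720. Libraries resembled each other weakly, with a Pearson correlation across the tested circRNAs of 0.259 to 0.319 between any pair of libraries on the log2 scale. Of 19 hippocampal and neuronal marker genes, 15 hosted circRNAs, summing to 23903 to 24894 in Control against 22618 to 23719 in CUS. Of 15 oligodendrocyte markers 6 did (1374 to 2040 in Control, 2471 to 2989 in CUS), without Mog or Mag. Of 12 astrocyte markers 5 did (1375 to 2075 and 1710 to 2954), without Gfap, Aqp4 or Gja1, and of 14 vascular and choroid markers 3 did (745 to 1854 and 334 to 2733), without Cldn5, Pecam1 or Ttr. None of 11 microglial markers had a circRNA of its own here. The oligodendrocyte sums were higher and the hippocampal and neuronal sums lower in every CUS library than in any Control library. Single marker hosts went both ways, with 6 higher and 7 lower fitted values among 13 tested hippocampal and neuronal hosts. Of 3 tested oligodendrocyte hosts 2 were higher and 1 lower, where 48.1% of all tested hosts were higher. The part of these cell types in the differences below was not tested. In bulk tissue, fewer cells of a type and less RNA per cell cannot be told apart.

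The members were spread over all chromatin roles. Roles were assigned by symbol alone, so a role need not match each gene's function. Arid4a, for example, counts as a remodeller, and Phf2 and Phf8 count as PHD finger genes. GENCODE lists 126 protein-coding genes that match the symbols, and 72 hosted at least 1 circRNA, on 21 chromosomes. The share was highest among the methyltransferases (17 of 22 genes) and demethylases (12 of 18), with 21 of 33 remodellers, 5 of 11 deacetylases, 4 of 10 bromodomain genes, 10 of 22 PHD finger genes, 2 of 8 acetyltransferases and 1 of 2 ubinucleins. By family, all 3 Nsd genes and 12 of 18 Kdm genes had circRNAs, against 2 of 8 Brd genes and 2 of 8 Kat genes. Kdm5d, which lies on the Y chromosome, was above 0 in 5 of 6 libraries of these male mice and had no value in CUS replicate 3.

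Member hosts gave more circRNAs than hosts at large. They had 3.46 circRNAs each on average, against 2.51 over the 3675 hosts of circRNAs with a single identifier, and 36.1% of them had only 1 circRNA, against 49.0%. Their coding transcripts held a median of 22 exons, against 15, while the median gene span was alike at 77.9 kb against 75.4 kb. Across the 72 member hosts the number of circRNAs correlated with exon number (Spearman rho 0.45) and with gene span (0.52). Across 3515 hosts with a coding transcript the values were 0.29 and 0.44. These correlations are across genes, which share libraries and are not independent, and they are given without a test. Ash1l (17 circRNAs), Ubn2 (16), Chd9 (13), Kmt2c (12) and Chd6 (8) had the most, and Kdm4d, whose coding transcript has 3 exons, had 1.

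**Figure D1:**
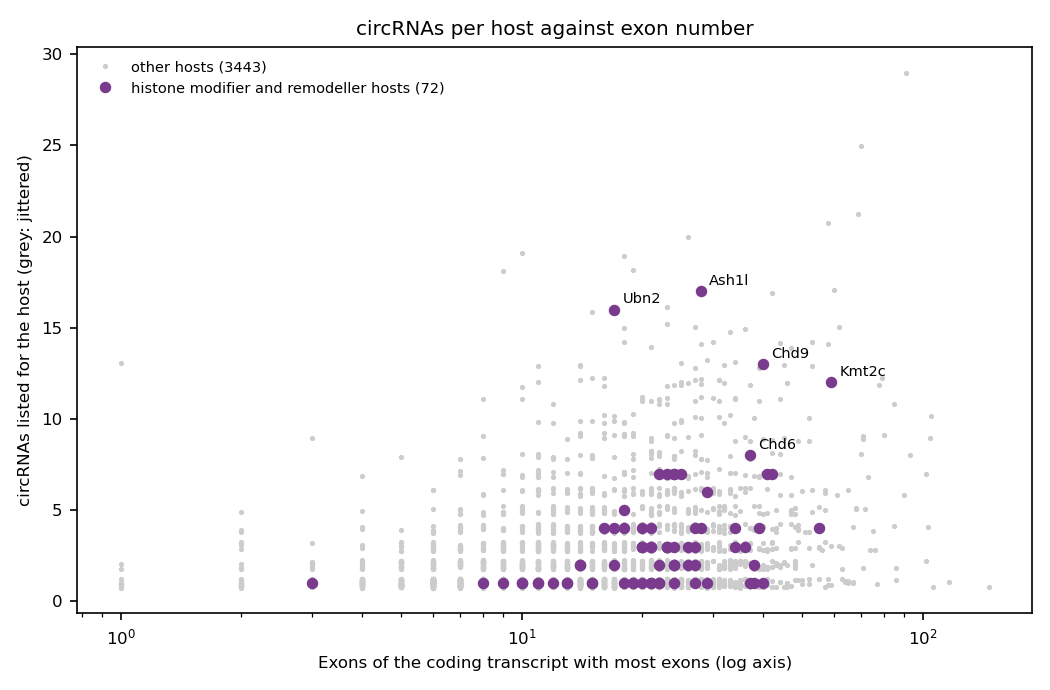
Number of circRNAs listed for each host (vertical) against the exon number of its coding transcript with most exons (horizontal, log axis), with the 72 member hosts in purple and other hosts in grey, jittered vertically. Ubn2 reaches 16 circRNAs with 17 exons, while Kmt2c has 12 with 59 exons.

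Most single circRNAs were seen in few libraries. Of the 249, 66 (26.5%) were above 0 in 1 library and 79 (31.7%) in 2, against 35.9% and 27.0% of all 9208 circRNAs with a single host. The 26 that were above 0 in all 6 libraries (10.4%, against 7.65%) carried 44.4% of the members' summed level. That share was 37.4% over all circRNAs with a single host. Nearly all members were exonic, 244 of 249 (98.0%, against 95.0%), and the 5 intronic ones came from Arid1b, Arid2, Kmt2a, Phf2 and Phf24. Each library held 103 to 120 member circRNAs above 0. The summed level of all members was 45019, 51851 and 42522 in Control replicates 1 to 3 against 60345, 47923 and 50780 in the CUS replicates. The groups overlapped in this sum, which came to 2.09% to 2.53% of each Control library and 2.36% to 3.01% of each CUS library.

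CUS was then compared with Control for each host sum and each circRNA, to ask which circRNAs differ with stress. Host sums and circRNAs were tested with limma on log2(level + 45.5), fitted over the whole table with Benjamini-Hochberg adjustment, when above 0 in at least 3 of 6 libraries. Of the 72 hosts 52 were tested, and 0 passed at an adjusted p under 0.05, as did 0% of all 2151 hosts tested. At an unadjusted p under 0.05 there were 5 member hosts (9.62%), where 5.86% of all hosts were called. All 5 were higher in CUS, namely Ubn2, Smarcal1, Ezh2, Brwd1 and Kdm4d, against a background of 2.56% called higher and 3.3% called lower. Smarcal1, listed at 0 in every Control library, met the filter only through CUS, so its direction was fixed by the filter. Without Control replicate 3 the count of member hosts at that p was 0, with 91 of all 2151 hosts. It was 3 without Control replicate 2 or any single CUS library, with 102 to 118 of all hosts.

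The members lay on both sides of no difference. Of the 52 hosts 24 had a higher fitted value in CUS (46.2%, background 48.1%), with a median log2 difference of -0.04, and the median over all 2151 was -0.05. The other 20 hosts were above 0 in fewer than 3 libraries and were not tested. Fully separated groups were seen in 8 hosts (15.4%, background 11.4%), 6 with every CUS library higher (background 5.86%) and 2 with every CUS library lower (background 5.53%). The higher ones were Ubn2, Smarcal1, Ezh2, Kdm4d, Phf20 and Kdm5b, and the lower ones Smarcad1 and Arid4a. The separation of Smarcal1 was fixed by the filter, which it met through CUS alone. Of 249 circRNAs 104 were tested and 0 passed the adjusted threshold, as did 0% of 3896. At an unadjusted p under 0.05 there were 9 (8.65%, background 6.01%), 4 higher (background 2.75%) and 5 lower (background 3.26%). Some of the 9 had no value in 1 whole group, and these met the filter only through the other group. The count of 9 became 5, 4 and 3 without CUS replicate 1, 2 and 3 in turn. Over all 3896 circRNAs it was then 212, 201 and 211. Fitted values were higher in CUS for 52 of the 104 (50%, background 47.2%), and 145 members were seen in too few libraries for a test. Some of these hosts were singled out with earlier results of these data in view, so the counts are no independent evidence.

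**Figure D2:**
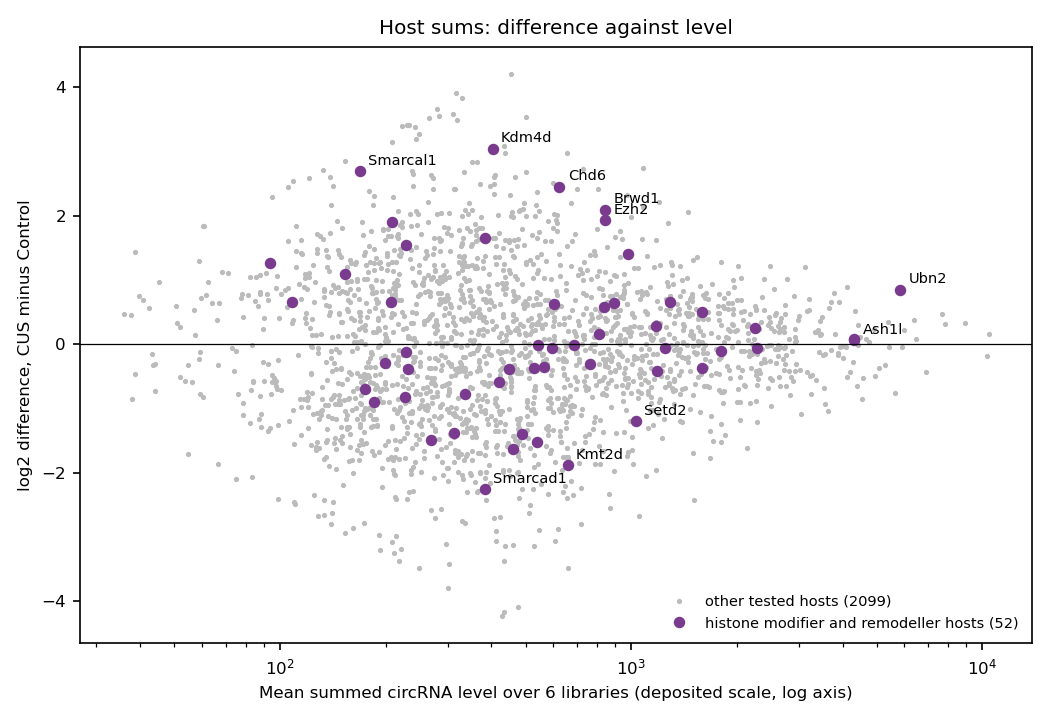
Log2 difference of host sums, CUS minus Control (vertical), against the mean summed level over 6 libraries (horizontal, log axis), with each point 1 tested host. The 52 member hosts (purple) lie on both sides of 0 within the cloud of the other hosts, and Ubn2 has the highest level of the members and a log2 difference of 0.85.

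Ubn2, which encodes a ubinuclein, a subunit of histone chaperone complexes that deposit the H3.3 variant, had the highest host sum of the members. The gene lies at chromosome 6, 38433950 to 38524825 (GRCm38, plus strand). Its 16 circRNAs summed to 4691, 5526 and 2564 in Control replicates 1 to 3, against 8859, 6081 and 7350 in the CUS replicates. Every CUS library was above every Control library. Mean sums were 4260 ± 1527 for Control against 7430 ± 1391 for CUS (SD, n = 3 each). The log2 difference was 0.85 with SE 0.34 (limma unadjusted p = 0.016, adjusted p = 0.708). The number of Ubn2 circRNAs above 0 did not move with the group, with 8 or 9 in each library.

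Of the Ubn2 circRNAs, mmu_circRNA008745 had the smallest p. It was at 229, 802 and 258 in Control against 1064, 2531 and 2107 in CUS, so the groups did not overlap (log2 difference 2.15, SE 0.74, limma adjusted p = 0.577). Without it the Ubn2 sum was 4461, 4725 and 2306 in Control against 7795, 3550 and 5243 in CUS, and the groups overlapped. The most abundant Ubn2 circRNA, mmu_circRNA008736, was above 0 in every library, at 2569, 1868 and 835 in Control against 2385, 1579 and 3001 in CUS. mmu_circRNA008731, the third found in all libraries, was at 809, 716 and 133 against 1678, 605 and 141. Neither of these separated the groups.

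**Figure D3:**
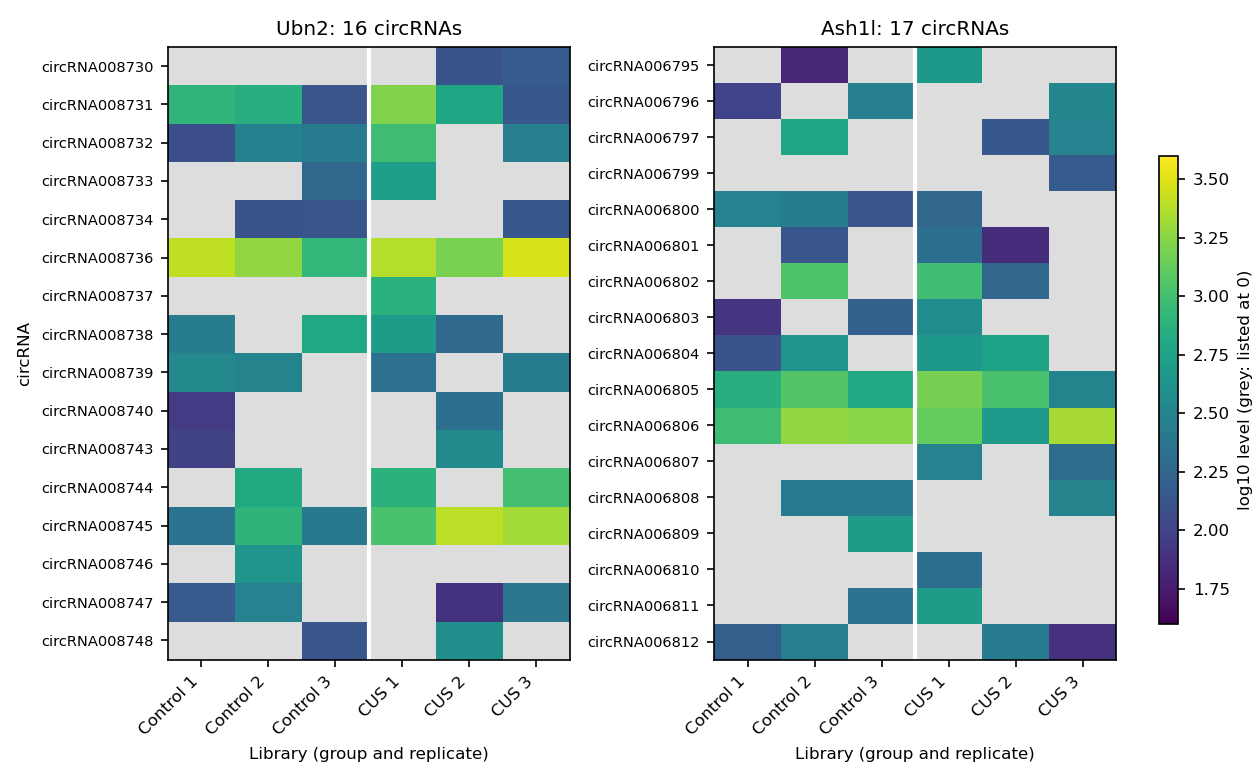
Log10 levels of the 16 Ubn2 and 17 Ash1l circRNAs (rows) in the 6 libraries (columns, Control left of the white line), with grey for values listed at 0. Only 3 Ubn2 and 2 Ash1l circRNAs are above 0 in all 6 libraries, and mmu_circRNA008745 of Ubn2 is brighter in the 3 CUS libraries.

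Methyltransferase hosts, the writers of histone methylation, had more lower than higher fitted values. Of 17 hosts 12 were tested, 4 with a higher and 8 with a lower fitted value (median log2 difference -0.27, against -0.05 over all hosts tested, of which 48.1% were higher). Of their 36 tested circRNAs 13 were higher and 23 lower (median -0.32, against -0.12 over all circRNAs tested). Among the host sums, Ezh2 alone was at an unadjusted p under 0.05. Among the circRNAs 1 of Ezh2 was higher at that p (background 2.75%), and 2, of Kmt2c and Kmt2d, were lower (background 3.26%). The Kmt2c circRNA had no value in CUS and met the filter only through Control, so its direction was fixed by the filter. The summed level of the methyltransferase hosts was 14752 ± 925 in Control against 13691 ± 4698 in CUS (SD, n = 3 each). The 3 CUS libraries were far apart, at 18175, 14093 and 8805, where Control spanned 13814 to 15663.

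Ezh2 encodes the catalytic subunit of Polycomb repressive complex 2, which places a repressive methyl mark on histone H3, and lies at chromosome 6, 47530139 to 47595341 (minus strand). Its 3 circRNAs summed to 579, 207 and 207 in Control against 2067, 1232 and 764 in CUS. The lowest CUS library was above the highest Control library, and the log2 difference was 1.93 with SE 0.84 (limma adjusted p = 0.708). A single circRNA, mmu_circRNA008779, made up 85.2% of the sum, at 476, 207 and 95.8 in Control against 1905, 974 and 650 in CUS. Its log2 difference was 2.07 with SE 0.90 (limma adjusted p = 0.608). Ezh1, the paralog of Ezh2, had 1 circRNA, seen only in Control replicate 1 at 647.

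Ash1l, a methyltransferase gene of the Trithorax group that opposes Polycomb (chromosome 3, 88950622 to 89079375), had the most circRNAs, yet its sum did not separate the groups. It was at 2467, 6248 and 3982 in Control against 6560, 2786 and 3863 in CUS, a log2 difference of 0.07 with SE 0.39. The range was as wide within each group as between them, and the sign turned when Control replicate 1 or CUS replicate 1 was left out. Most of the level sat in mmu_circRNA006806 (959, 1891 and 1753 in Control, 1330, 479 and 2175 in CUS) and mmu_circRNA006805 (731, 1152 and 628 in Control, 1548, 1068 and 315 in CUS). Of the other 15, none was above 0 in all libraries, and mmu_circRNA006800 was at 307, 277 and 136 in Control against 183, 0 and 0 in CUS.

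The 3 Nsd genes, which encode related methyltransferases, gave different pictures. Nsd1 was at 1864, 1639 and 2764 in Control against 1156, 4970 and 1275 in CUS, where CUS replicate 2 stood above all other libraries. That library held 2821 of mmu_circRNA002868, which was at 705 to 1324 in the other 5. Nsd2 was at 768, 411 and 1141 in Control against 681, 118 and 111 in CUS, with CUS replicate 1 inside the Control range (log2 difference -1.52, SE 1.09). Nsd3 was at 884, 1316 and 630 in Control against 2721, 1404 and 780 in CUS, and its 2 circRNAs mmu_circRNA009883 and mmu_circRNA009885 differed by at most 12 steps of the library scale, so they may share reads. The adjusted p was above 0.9 for all 3 sums with limma.

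On the lower side were Setd2, Kmt2d and Kmt2e. Setd2, which encodes a methyltransferase coupled to transcript elongation, was at 1053, 749 and 2617 in Control against 702, 791 and 266 in CUS (log2 difference -1.19, SE 0.74). Kmt2d, an enhancer methyltransferase gene, was at 1770, 129 and 1088 in Control against 834, 132 and 0 in CUS (log2 difference -1.89, SE 1.30). Kmt2e was at 787, 381 and 686 in Control against 699, 215 and 0 in CUS (log2 difference -1.63, SE 1.27). The leading Setd2 circRNA, mmu_circRNA010955, held 73.7% of its sum, at 555, 749 and 2208 in Control against 702, 75.3 and 266 in CUS. In each of the 3 genes at least 1 CUS library lay within the Control range. Kmt2c, a paralog of Kmt2d, was at 408, 1926 and 2091 in Control against 896, 1025 and 739 in CUS over 12 circRNAs. The most abundant of these, mmu_circRNA007889, held 16.8% of the Kmt2c sum. Among the others, mmu_circRNA007891 (11.9%) and mmu_circRNA007890 (10.7%) stayed within 20 steps of each other and may share reads.

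Demethylase hosts (Kdm symbols), the erasers of methylation, were all tested, with 6 of 12 fitted values higher (background 48.1%) and 6 lower. Their summed level was 5197 ± 1781 in Control against 6853 ± 2170 in CUS (SD, n = 3 each). Kdm4d (chromosome 9, 14462548 to 14500482) was the only demethylase host at an unadjusted p under 0.05. Its 1 circRNA, mmu_circRNA010378, was at 311, 0 and 0 in Control against 607, 734 and 764 in CUS. Every CUS library was higher, and the log2 difference of 3.04 (SE 1.44 as a host sum, limma adjusted p = 0.780) rests in part on 2 Control libraries at 0.

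The other Kdm4 genes did not follow Kdm4d. Kdm4b was at 0, 1077 and 883 in Control against 973, 446 and 0 in CUS, with a library at 0 in each group and a log2 difference of -0.35 (SE 1.44). Of its 3 circRNAs, mmu_circRNA004735 and mmu_circRNA004736 stayed within 8 steps of each other and may share reads, and mmu_circRNA004737 was at 482 and 883 in Control replicates 2 and 3 and listed at 0 in the other 4 libraries. Kdm4c was at 908, 1659 and 1096 in Control against 831, 1762 and 3262 in CUS (log2 difference 0.50, SE 0.58). Its leading circRNA, mmu_circRNA007288, was highest in CUS replicate 3, at 1623, and spanned 293 to 847 elsewhere. Whether these differences between paralogs exceed chance was not tested.

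Kdm2b and Kdm7a were named by the rule with few libraries above 0. Kdm2b was at 0, 0 and 495 in Control against 525, 0 and 1283 in CUS, and 2 of its 3 circRNAs, mmu_circRNA008351 and mmu_circRNA008352, differed by at most 8 steps. Kdm7a, with 1 circRNA, was at 94.2, 628 and 309 in Control against 852, 0 and 0 in CUS, so CUS held both the highest and the lowest libraries. Kdm5b was at 130, 174 and 0 in Control against 203, 196 and 666 in CUS. The Kdm5b groups did not overlap, though by a small margin of level.

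Acetylation genes gave no host at an unadjusted p under 0.05 with limma, among 2 acetyltransferases and 3 deacetylases tested. Kat6b, a histone acetyltransferase gene, was at 2177, 1210 and 2428 in Control against 1223, 1993 and 4444 in CUS. Its circRNA mmu_circRNA003190 was at 710, 164 and 601 in Control against 522, 976 and 2166 in CUS (log2 difference 1.22, SE 0.83). Both overlapped between the groups, with CUS replicate 3 highest. Hdac4, a deacetylase gene that responds to neuronal activity, had the steadiest sum of the 30 member hosts above 0 in all libraries, at 2016, 1942 and 1617 in Control against 2176, 1482 and 1546 in CUS. Its highest library was 1.47 times its lowest, where the median ratio was 4.31 for these 30 hosts and 4.62 for the 874 hosts of any kind above 0 in all libraries. In Control replicate 3 the Hdac4 circRNAs mmu_circRNA000397 and mmu_circRNA000398 had the same level, 809, so they may share reads there. The sum counts both, and its steadiness depends on that.

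The steady Hdac4 sum held an unsteady circRNA. mmu_circRNA000398 was at 1014, 1425 and 809 in Control against 1571, 59.2 and 1266 in CUS, so CUS replicate 2 was far below the rest. In that same library mmu_circRNA000395 was at 589 and was listed at 0 in the other 5. Hdac9, a close relative of Hdac4, was at 1347, 2937 and 1247 in Control against 926, 1576 and 1519 in CUS over 7 circRNAs. Its mmu_circRNA002255 was lower in every CUS library, at 608, 348 and 378 in Control against 0, 325 and 258 in CUS (log2 difference -1.47, SE 1.18).

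Among readers, bromodomain hosts had 3 of 4 fitted values higher, and PHD finger hosts 2 of 4, where 48.1% of all tested hosts were higher. All 4 bromodomain hosts but only 4 of 10 PHD finger hosts were tested. Brwd1, a bromodomain and WD repeat gene known for chromatin opening in lymphocyte development (chromosome 16, 95992092 to 96082526, minus strand), was at 1135, 83.2 and 109 in Control against 1335, 721 and 1677 in CUS. Control replicate 1 lay above CUS replicate 2, so the groups overlapped (log2 difference 2.09, SE 0.95, limma adjusted p = 0.733). Its highest library was 20.2 times its lowest, the widest ratio among the 30 member hosts above 0 in all libraries. A further 2 circRNAs list Brwd1 with a small RNA gene, Gm27833, both at 242 in CUS replicate 2 and listed at 0 elsewhere.

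The Brwd1 sum was made of small parts. None of its 7 circRNAs was above 0 in all libraries, and mmu_circRNA004477 led with 34.8%, at 550, 0 and 0 in Control against 310, 301 and 601 in CUS. mmu_circRNA004479 had the same level as mmu_circRNA004477 in CUS replicates 2 and 3, so this pair may share reads. Brwd3, the paralog on the X chromosome, was at 254, 401 and 1644 in Control against 360, 88.8 and 179 in CUS (log2 difference -1.40, SE 1.22). The values for Brwd3 overlapped, and its highest library was Control replicate 3.

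Phf20, a PHD finger gene whose product works with a histone acetyltransferase complex, was higher in every CUS library. Its sum was 572, 754 and 255 in Control against 2135, 1068 and 1093 in CUS, with means of 527 ± 252 and 1432 ± 609 (SD, n = 3 each). The log2 difference was 1.41 with SE 0.73 (limma unadjusted p = 0.061, adjusted p = 0.917). Its mmu_circRNA006441 was at 572, 545 and 0 in Control against 929, 629 and 315 in CUS, and mmu_circRNA006442 at 0, 0 and 255 in Control against 351, 438 and 272 in CUS. The relative Phf20l1 was at 128, 456 and 338 in Control against 687, 0 and 0 in CUS, so it did not separate the groups.

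Phf3, a PHD finger gene linked to RNA polymerase II, was at 497, 1089 and 279 in Control against 501, 909 and 296 in CUS, nearly the same range in both groups. Its sum leaves out 2 circRNAs that list Phf3 together with Gm37522, and both were above 0 in all 6 libraries. mmu_circRNA000125 was at 324, 938 and 170 in Control against 79.6, 441 and 546 in CUS, and mmu_circRNA000126 at 406, 151 and 245 in Control against 478, 358 and 821 in CUS. Both overlapped between the groups. Chd4 and Kdm1a were seen only in such circRNAs with several identifiers, in 2 libraries and 1 library.

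**Figure D4:**
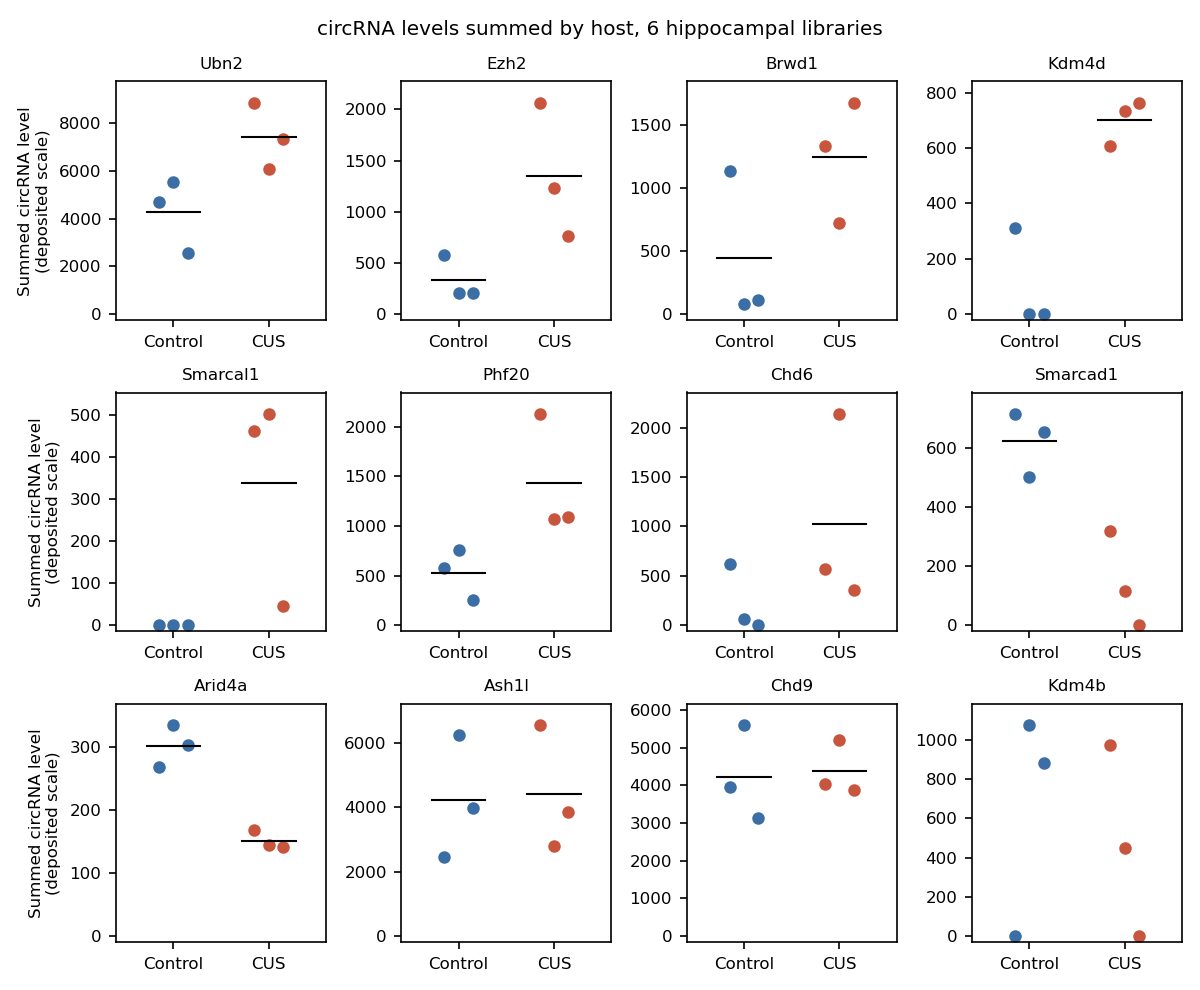
Summed circRNA levels (vertical, deposited scale from 0) of 12 hosts in each Control (blue) and CUS (red) library, with the group mean as a bar where all 3 libraries are above 0. Ubn2, Ezh2, Kdm4d, Smarcal1 and Phf20 have every CUS library above Control, Smarcad1 and Arid4a every CUS library below, and Brwd1, Chd6, Ash1l, Chd9 and Kdm4b overlap.

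Remodeller hosts were the largest role group by genes, with 14 of 21 tested, 6 higher and 8 lower (48.1% of all tested hosts were higher). Their summed level was 10428 ± 1876 in Control against 11779 ± 1514 in CUS (SD, n = 3 each), and the groups overlapped. Chd9, a chromodomain helicase gene (chromosome 8, 90828352 to 91054516), was the most abundant of them, at 3952, 5608 and 3123 in Control against 4027, 5210 and 3884 in CUS. Its log2 difference was 0.08 with SE 0.36. A single circRNA, mmu_circRNA010182, gave 61.8% of it, at 2897, 3633 and 1200 in Control against 1618, 3545 and 3063 in CUS. The lowest and the highest Chd9 library were both Control libraries.

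Smarcal1 was the remodeller at the smallest unadjusted p. It encodes an SNF2-family enzyme that anneals DNA strands at stalled replication forks and lies at chromosome 1, 72583251 to 72633134. It was listed at 0 in all 3 Control libraries and was at 463, 503 and 46.2 in CUS (limma unadjusted p = 0.027, adjusted p = 0.708). The 46.2 is the lowest level above 0 of any circRNA in CUS replicate 3. Both the pass of the filter and the full separation of Smarcal1 rest on that value. No single circRNA gave this sum: mmu_circRNA000312 held all of CUS replicate 1, and mmu_circRNA000311 all of CUS replicates 2 and 3. No fold is given, since being listed at 0 does not show that the circRNA is absent.

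Smarcad1 and Arid4a were the hosts lower in every CUS library. Smarcad1, an SNF2-family remodeller gene active at heterochromatin, was at 715, 499 and 652 in Control against 318, 116 and 0 in CUS (log2 difference -2.25, SE 1.36, limma adjusted p = 0.917). Its circRNAs differed by library, with mmu_circRNA008826 at 0, 499 and 652 in Control against 318, 0 and 0 in CUS. Arid4a, which encodes a part of a deacetylase corepressor complex, had 1 circRNA, mmu_circRNA002420, present in every library. It was at 268, 335 and 303 in Control against 168, 145 and 141 in CUS, or 302 ± 33.7 and 152 ± 14.4 (SD, n = 3 each). Its own spread was small, while the limma error is shared with hosts of a like level, and the log2 difference was -0.82 with SE 1.41 (adjusted p = 0.923).

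Chd6 and Chd8, 2 further chromodomain helicase genes, were higher on average in CUS but were made of different circRNAs in different libraries. Chd6 was at 618, 63.0 and 0 in Control against 569, 2141 and 353 in CUS (log2 difference 2.45, SE 1.31), and mmu_circRNA006475, its most abundant circRNA, was seen only in CUS replicate 2, at 888. Chd8 was at 111, 0 and 0 in Control against 0, 519 and 622 in CUS, all of CUS replicate 2 from mmu_circRNA003330 and all of CUS replicate 3 from mmu_circRNA003329. Smarcd1, a subunit gene of the BAF complex, was at 43.5, 60.5 and 0 in Control against 142, 59.2 and 256 in CUS. Arid1a and Arid1b encode alternative subunits of the same complex. Arid1a was at 724, 0 and 85.1 in Control against 0, 0 and 299 in CUS. Arid1b was above 0 in every library, with 526, 1029 and 2439 in Control against 1801, 646 and 1022 in CUS. The exonic mmu_circRNA004503 led Arid1b in most libraries, and the intronic mmu_circRNA004504 gave 1311 of the sum in Control replicate 3 alone.

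Kdm3b, a demethylase gene, had 2 circRNAs whose groups separated in opposite directions, neither past the adjusted threshold. mmu_circRNA005058 was at 157, 315 and 144 in Control without any value in CUS, while mmu_circRNA005059 was at 50.7, 0 and 0 in Control against 265, 153 and 109 in CUS. Their sum overlapped, at 208, 315 and 144 in Control against 265, 153 and 109 in CUS. The log2 differences were -2.40 (SE 1.00, limma adjusted p = 0.577) and 1.86 (SE 1.08, limma adjusted p = 0.872), and the difference between the pair was not tested.

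Of the further circRNAs at an unadjusted p under 0.05, 4 had no value in 1 whole group. On the lower side, mmu_circRNA009028 of Kdm5a was at 210, 116 and 218 in Control, mmu_circRNA007896 of Kmt2c at 82.1, 209 and 189 and mmu_circRNA003796 of Phf20l1 at 128, 144 and 338, all without a value in CUS. On the higher side, mmu_circRNA005342 of Kdm2a was at 522, 156 and 158 in CUS without any value in Control. mmu_circRNA003999 of Kmt2d was at 1417, 129 and 718 in Control against 0, 132 and 0 in CUS, so that 1 CUS library kept a value inside the Control range. The limma adjusted p was 0.577 for the first 4 and 0.678 for the Kmt2d circRNA. Fully separated groups were found for 13 of 104 member circRNAs (12.5%, background 10.9%), 7 higher (background 5.78%) and 6 lower (background 5.08%). The 13 include the 4 without a value in 1 whole group, and mmu_circRNA005058 of Kdm3b, which had none in CUS. These met the filter only through the other group, so their separation was fixed by the filter and is only a description.

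**Figure D5:**
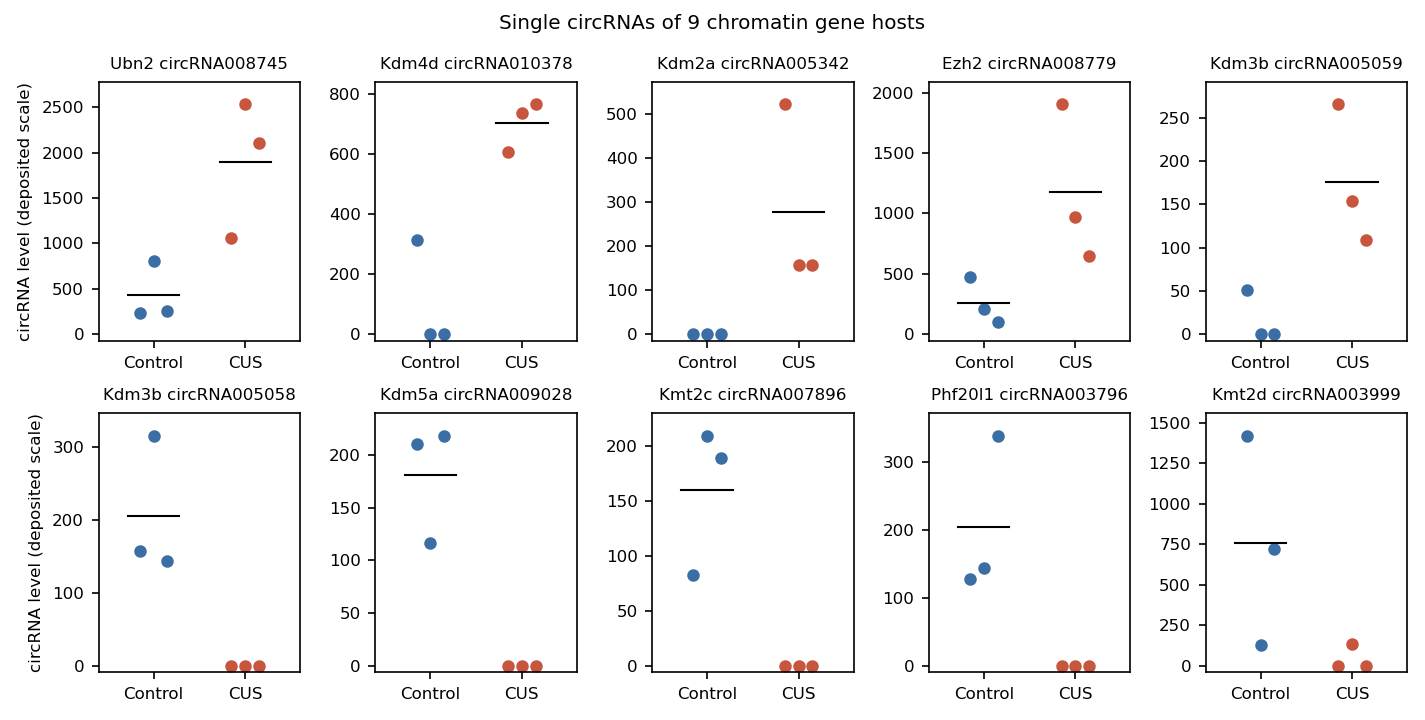
Levels of 10 single circRNAs (vertical, deposited scale from 0) in each Control (blue) and CUS (red) library, with the group mean as a bar where all 3 libraries are above 0. The 2 Kdm3b circRNAs run in opposite directions, and those of Kdm3b (mmu_circRNA005058), Kdm5a, Kmt2c and Phf20l1 in the lower row are listed at 0 in all CUS libraries.

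Partners of these proteins whose symbols do not match were counted in the same way, from 6 lists of Polycomb, other methylation, other acetylation, other remodeller, chaperone and DNA methylation genes. Of 224 genes 92 hosted circRNAs and 64 were tested, with 32 higher and 32 lower fitted values (48.1% of all tested hosts were higher). No host passed the adjusted threshold with limma, and 3 were at an unadjusted p under 0.05, 1 higher and 2 lower, where 5.86% of all hosts were called (2.56% higher and 3.3% lower). That count was no larger than the background share would give. By list, higher and lower counts were 2 and 4 for Polycomb, 9 and 7 for methylation, 9 and 9 for acetylation, 8 and 7 for remodellers, 1 and 1 for chaperones and 3 and 4 for DNA methylation. Ezh2's partners in the Polycomb list thus had no host at that p.

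The partner of smallest p on the higher side was Atf7ip, a cofactor of the Setdb1 methyltransferase, at 1125, 1294 and 1160 in Control against 2621, 2526 and 3362 in CUS (log2 difference 1.21, SE 0.49, limma adjusted p = 0.708). Dot1l, a methyltransferase gene, was at 0, 406 and 226 in Control against 1117, 686 and 454 in CUS, and Carm1, an arginine methyltransferase gene, at 0, 207 and 0 against 0, 522 and 1326. On the lower side were Ncor1, a deacetylase corepressor gene (log2 difference -1.77, SE 0.62), Prmt1, another arginine methyltransferase gene, at 191, 199 and 378 in Control without any value in CUS, and Rnf2, the Polycomb ubiquitin ligase gene, at 1301, 1064 and 745 against 513, 221 and 283. These 6 were chosen for their small p, so their separation is a description. Prmt1 met the filter through Control alone, so its separation was fixed. The Carm1 groups overlapped.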

How the data were processed

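The authors deposited 1 table of circRNA levels on a log10 scale, with 1 value per library and 0 where no value is listed. Per the submitters' processing notes, mm9, StringTie, DESeq and edgeR belong to the processing, without a stated role. Which program called the circRNAs is not given in the labels. Linear levels lay on whole multiples of a library-specific step (100% of values under 300 steps within 0.05). Relative depth, the inverse of that step, was 90.8% to 100% of the deepest library in Control and 81.9% to 89.8% in CUS. It was thus lower in every CUS library and cannot be told apart from the group. The reads behind a value are unknown. No circRNA coordinates or sequences were used. Host symbols, positions and exon numbers came from GENCODE vM21 (GRCm38), which holds 3667 of the 3675 host identifiers. Levels were not divided by length, so the order of hosts is one of deposited levels. Host sums used circRNAs with 1 host identifier.

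The test was limma 3.58.1 under R 4.3.3, with lmFit and a trended eBayes, on log2(level + 45.5), the pseudocount being the median of the libraries' lowest levels. Fold changes on that scale understate low circRNAs. The fit was tested on simulated data. Tables and figures used Python 3.11.15, numpy 2.4.6, pandas 2.3.3 and matplotlib 3.10.9. Named hosts were the 10 of highest mean, the 10 tested in each direction of smallest p, the 5 with most circRNAs, those at 0 in a whole group, and Brwd1, Ezh2, Ash1l, Ubn2 and Kdm4b. Named circRNAs were the most abundant of each named host, the 10 tested in each direction of smallest p and the 5 of highest mean among those above 0 in all 6 libraries. Other chromatin genes were the 3 tested in each direction of smallest p. Kdm5b, Arid4a and Ezh1, among others, were named after their values were seen. The members and lists were chosen with earlier results of these data known. The main test did not pair libraries by replicate number. Alternatives changed the pseudocount, filter, scaling, trend, block, host assignment, near-equal circRNAs and each library in turn.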

Additional observations from a re-analysis of the deposited data

How the results depend on the processing

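No host sum or circRNA of the members passed the adjusted threshold under any alternative run, with limma throughout. The 5 hosts at an unadjusted p under 0.05 became 3 of 30 when above 0 in all 6 libraries, with 51 of all 874. They became 3 when their mean had to exceed the median, with 60 of all 1075. With 1 library left out they spanned 0 to 5, with 91 to 118 of all 2151. The 9 circRNAs became 5 of 249 with no filter, with 171 of all 10652. Above 0 in all 6 libraries they were 3 of 26, with 32 of all 804. With a mean above the median they were 4, with 91 of all 1948. With 1 library left out they spanned 3 to 8, with 188 to 212 of all 3896. Stricter filters test fewer members, and apart from that the cause was not tested. Replicate numbers showed no sign of pairing the libraries. Deviations of same-numbered libraries correlated at -0.011, -0.025 and -0.020, and those of other pairs across the groups at -0.0087 to 0.029. Libraries resembled each other so weakly that a pairing could go unseen. With the replicate block 4 hosts (123 of all 2151) and 9 circRNAs (215 of all 3896) were at that p, and 0 passed after adjustment.

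Of 993 log2 differences for the 66 named and tested hosts and circRNAs, 964 kept their sign, and 29 in 16 hosts or circRNAs did not. Quantile normalization turned mmu_circRNA007889 (Kmt2c) to 0.22, and all others turned only with a library left out. Those ranges were -1.87 to 0.21 for Arid1a, -0.56 to 0.50 for Arid1b, -0.27 to 0.39 for Ash1l, -0.12 to 0.30 for Chd9, -0.59 to 0.0095 for Hdac9, -0.24 to 0.67 for Kat6b, -1.85 to 0.97 for Kdm4b and -0.73 to 0.31 for Nsd1. For circRNAs they were -1.57 to 0.41 for mmu_circRNA000398, -0.95 to 0.096 for mmu_circRNA002254, -0.54 to 0.43 for mmu_circRNA002868, -0.84 to 0.20 for mmu_circRNA006806, -0.068 to 0.87 for mmu_circRNA007288, -0.53 to 0.38 for mmu_circRNA007889, -0.14 to 0.61 for mmu_circRNA009879 and -0.31 to 0.49 for mmu_circRNA010182. The reads behind each value are unknown, so a value listed at 0 may lie below detection.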
